A study of Mus musculus with 2 samples.

Results

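The cells described here are the rule-selected ependymal cells from brains of mice in which APP is knocked in (APP-KI) to model Alzheimer's disease. The series asked how brain cells differ when Fit2, a lipid droplet gene named Fitm2 in mouse, is disrupted in macrophages. It holds 1 single-cell library per genotype, APP-KI Fit2-WT and APP-KI Fit2-Mut, each from the dissociated whole brain of mice aged 6 months. Both groups carry the APP knock-in, so neither is a brain without the disease model. The labels used here do not give the number of animals pooled, the driver of the macrophage disruption or the deleted part of the gene, and ependymal cells are not the cells in which Fit2 was meant to be disrupted. A barcode was taken as a cell with at least 1000 UMIs (unique molecular identifiers, each counting 1 captured transcript), at least 500 genes and at most 10% mitochondrial UMIs. It was a member where the ependymal markers Tmem212, Ccdc153, Cfap126, Dynlrb2 and Foxj1 summed to at least 10 UMIs, the choroid plexus genes Folr1, Kcnj13 and Kcne2 to at most 4, and Mog, Cldn5 and P2ry12, of oligodendrocytes, endothelium and microglia, to at most 3. This gave 110 of 5333 cells in Fit2-WT and 152 of 5979 in Fit2-Mut, 262 of 11312 cells in all.

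Ependymal cells are the multiciliated epithelium of the brain ventricles. Each carries a tuft of beating cilia that moves cerebrospinal fluid along the ventricular wall. The motor of such a cilium is the axoneme, a ring of microtubule doublets around a central pair, with outer and inner dynein arms that drive the beat, radial spokes that link the ring to the central pair, and nexin links that hold neighbouring doublets together. Foxj1 and the Rfx factors switch on the genes of motile cilia, after Gmnc, Mcidas and Myb have started the programme that multiplies the centrioles from which the cilia grow. The choroid plexus epithelium, which secretes the fluid, adjoins the ependyma and comes from the same ventricular lining, and its cells make transthyretin (Ttr).

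The Fit2-WT library held 52491901 UMIs and the Fit2-Mut library 63234140. Members had a median of 11197 UMIs and 3782 genes in Fit2-WT and of 10906 UMIs and 3936 genes in Fit2-Mut, so their depth was alike. In all, 10 cell barcodes occurred in both libraries, and 0 of these were members. A doublet caller marked 124 and 155 cells, of which 0 and 3 were members. Levels are UMIs of a gene summed over cells and scaled to the total UMIs of those cells (CPM). They count 3′ ends and were not divided by gene length. With 1 library per genotype no difference between genotypes can be tested. Intervals are 95% intervals of counting error alone, exact Poisson for a level, exact conditional for a ratio and exact binomial for a share. They hold nothing on the variation between animals. For levels of genes and their ratios each UMI counts as independent, so these intervals also leave out the variation between cells. They are too narrow where few cells hold many of the UMIs. Free RNA, from lysed cells, was read from barcodes with 10 to 100 UMIs.

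The genes that chose the members were, as the rule fixes, far higher in them than in astrocytes. Tmem212, a membrane protein (ENSMUSG00000043164, chr3:27866066-27896368, minus strand, GRCm38), had 2367 CPM in Fit2-WT and 2372 CPM in Fit2-Mut. Ccdc153, a coiled-coil protein of motile cilia, had 1752 and 1837 CPM. Dynlrb2, a dynein light chain, had 1018 and 904 CPM, Cfap126 532 and 592 CPM, and the transcription factor Foxj1 345 and 315 CPM. Of 16 other ependymal genes that the rule did not use, all were detected in both libraries. Their summed level was 10302 CPM in Fit2-WT and 10504 CPM in Fit2-Mut, against 87.1 and 79.6 CPM in astrocytes, 31.1 and 31.5 CPM in endothelial cells, and 962 and 928 CPM in choroid plexus epithelium. In members with 20 or more UMIs of the rule markers it was 13496 and 12945 CPM. Among them, Rarres2, the chemerin precursor, had 2436 and 2636 CPM, Mia 1041 and 1095 CPM, Rsph1 1037 and 1051 CPM, and Hdc, which makes histamine, 234 and 235 CPM.

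As groups, the 191 members with 20 or more UMIs of the rule markers had the profile of the label and the other 71 did not, and each group held exceptions. The 78 of the 191 in Fit2-WT and the 113 in Fit2-Mut had Ttr at 801 and 1540 CPM, far under the 317270 and 318839 CPM of choroid plexus epithelium and the 47508 and 46022 CPM of free RNA. Of these cells 3 had Ttr at 1% or more of their UMIs, at 1.49% in Fit2-WT and at 2.32% and 6.49% in Fit2-Mut, with mitochondrial shares of 0.0312%, 0% and 0.511% and with 20 to 23 marker UMIs. The 32 Fit2-WT and 39 Fit2-Mut members with 10 to 19 marker UMIs had Ttr at 39900 and 37326 CPM, and it was under 1% in 8 cells of each library. The fluid-secreting epithelium's other genes went with it, with Clic6, a chloride channel protein, at 679 and 651 CPM, Enpp2, which makes lysophosphatidic acid, at 1863 and 1442 CPM, Kl (klotho) at 423 and 331 CPM, and the transcription factor Otx2 at 359 and 236 CPM. Rarres2 was at 47.0 and 78.6 CPM in these low-marker members against 3420 and 3393 CPM in the high-marker ones, and S100b at 32.3 and 19 CPM against 491 and 484 CPM. Genes of oligodendrocytes, which in free RNA summed to 6090 and 8457 CPM, were at 44.1 and 75.9 CPM in low-marker members and 48.4 and 80.2 CPM in high-marker ones. The part of free RNA in the low-marker members was not tested. The 71 were mixed, since their median cell had 0.213% and 0.180% of its UMIs on the 16 other ependymal genes and the 90th percentile 0.755% and 0.837%, against medians of 1.4% and 1.3% in high-marker cells.

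The low-marker members also differed in RNA composition. Their median share of mitochondrial UMIs was 0.241% and 0.108%, against 3.32% and 3.28% in high-marker members and 3.5% and 3.74% in choroid plexus epithelium. Nuclear genes of the respiratory chain summed to 52183 and 52296 CPM in them, against 10854 and 10832 CPM in high-marker members. Just inside the threshold, at 10 to 14 marker UMIs, 25 Fit2-WT and 30 Fit2-Mut cells had Tmem212 at 36.2 and 114 CPM and Ttr at 44447 and 34400 CPM. Just outside it, at 5 to 9 marker UMIs, 85 and 77 cells had Tmem212 at 13.3 and 18.7 CPM and Ttr at 48619 and 45951 CPM. Cells with 70 or more marker UMIs had Ttr at 480 and 500 CPM and Tmem212 at 3584 and 3363 CPM. In Ttr, cells at either side of the threshold were therefore more like each other than like these cells. Tmem212 is part of the marker sum, so its rise from group to group follows from the grouping. The 262 cells are called rule-selected cells below, the 191 are called high-marker cells. The main results are given for both sets.

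**Figure D1:**
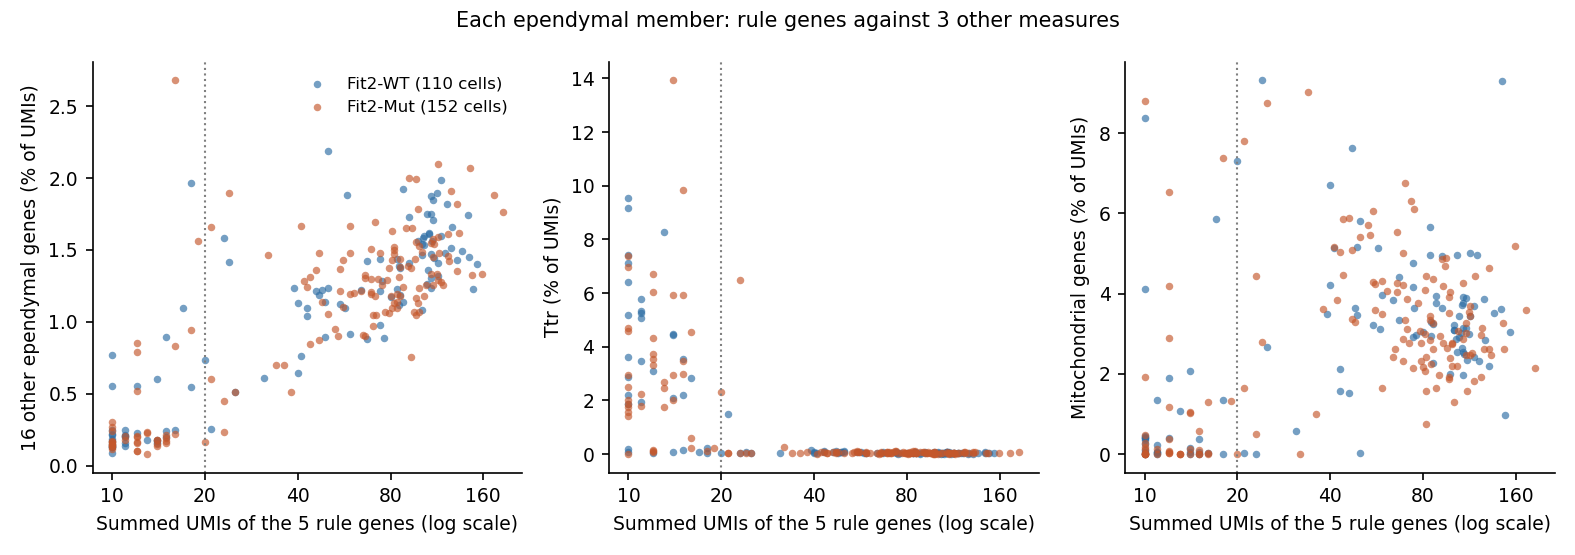
Each point is 1 of the 262 rule-selected cells (Fit2-WT and Fit2-Mut in separate colours), plotted by the summed UMIs of the 5 rule markers (log axis) against the percent of its UMIs from 16 other ependymal genes, from Ttr and from mitochondrial genes, with a dotted line at 20 marker UMIs. Cells with 10 to 19 marker UMIs have a median Ttr share of 3.27% in Fit2-WT and 2.69% in Fit2-Mut, and those with 20 or more of 0.0525% and 0.0496%.

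Genes of the axoneme set the rule-selected cells apart from both neighbouring cell types. Astrocytes, which share a radial glial origin with the ependyma, and choroid plexus epithelium were chosen from the same libraries by markers of their own, 1046 and 1328 astrocytes and 482 and 541 choroid plexus cells. Of 103 axoneme genes, 99 in Fit2-WT and 100 in Fit2-Mut had at least 20 UMIs in members and astrocytes together. In each library 99 of these were at least 1.5-fold higher in members, where 33.5% of all genes in Fit2-WT and 32.4% in Fit2-Mut were, and 0 were 1.5-fold lower, where 37.4% of all genes in each library were. Their median log2 ratio to astrocytes was 5.72 and 5.82, against -0.13 and -0.13 over all genes, and 6.01 and 6.05 in high-marker cells alone. Against choroid plexus, 94 of 98 and 95 of 99 were at least 1.5-fold higher, where 60.3% and 61.6% of all genes were, with a median log2 ratio of 3.5 and 3.54 against 0.90 and 0.96 over all genes, and 0 and 1 were 1.5-fold lower, where 9.28% and 9.94% of all genes were. The members were chosen by ciliary genes, and the astrocytes and choroid plexus cells were held to at most 4 UMIs of the same markers. Of 335 and 352 cells with 10 or more marker UMIs, the limit on choroid plexus genes removed 222 and 194. Selection on both sides thus widens these differences, and they are descriptions.

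The heavy chains, the motors themselves, stood highest. All 13 heavy-chain genes that could be compared were at least 1.5-fold above astrocytes, with medians of 8.07 and 7.86 on the log2 scale. Dnah12, an inner-arm heavy chain, had 778 CPM in Fit2-WT and 720 CPM in Fit2-Mut, against 0.498 and 0.345 CPM in astrocytes. Dnah5 and Dnah9, motors of the outer arm, had 316 and 331 CPM and 359 and 418 CPM. Dnah11, the partner of Dnah5 at the base of the cilium, had 312 and 347 CPM, and Dnah6, of the inner arm, 495 and 522 CPM. Dnah8 and Dnah17, heavy chains known from sperm tails, had 0 UMIs in members of both libraries. Dnah7b was a weak separator, with 200 and 211 CPM in members and 111 and 111 CPM in astrocytes. Dnah7a, Dnah7b and Dnah7c are near-identical neighbours, so reads may be split between them.

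Structures around the motors followed in order of their median. Radial spoke and central pair genes lay 6.40 and 6.06 above astrocytes on the log2 scale, with all 25 at least 1.5-fold higher. Among these, Hydin, a central pair protein whose loss causes hydrocephalus in mice, had 411 and 460 CPM against 1.16 and 0.460 CPM in astrocytes, and Spef2, of the central pair, had 556 and 633 CPM. Nexin link and inner tubule genes lay 5.73 and 5.93 above astrocytes, with all 29 at least 1.5-fold higher, and included Mns1 at 488 and 527 CPM, Tekt1 at 342 and 360 CPM and Drc1, of the nexin link, at 281 and 273 CPM. Docking and assembly genes lay 5.39 and 5.41 above, with all 16 higher, and Armc4, which docks the outer arm, had 232 and 306 CPM. The other dynein chains, many of which also serve cytoplasmic transport, lay 2.99 and 2.87 above.

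Genes that build cilia of any kind differed less. Intraflagellar transport genes, which carry cargo along primary and motile cilia alike, had medians of 1.91 and 1.84 over astrocytes. Of 39, 34 and 36 were at least 1.5-fold higher, where 33.5% and 32.4% of all genes were. Ift88, a carrier subunit, had 256 and 223 CPM against 21.9 and 28.4 CPM, while Dync2h1, the return motor, had 235 and 225 CPM against 114 and 110 CPM. Basal body genes had medians of 2.28 and 2.25, with Cetn2, a centrin, at 543 and 555 CPM against 23.6 and 25.5 CPM in astrocytes. Tubb4b, a tubulin of the axoneme, had 2496 and 2440 CPM against 160 and 163 CPM. Regulators of multiciliation were a mixed group, with medians of 0.25 and 0.62. Of 14 genes, 6 and 8 were at least 1.5-fold higher, where 33.5% and 32.4% of all genes were. Another 2 and 3 were lower, where 37.4% of all genes in each library were. In high-marker cells 6 of 14 were higher in each library, and 4 and 3 lower, and the shares of all genes there are not given here. Myb had 78.0 and 90.4 CPM, and Deup1, of the structure that multiplies centrioles, 35.1 and 36.5 CPM, while Mcidas had 0 UMIs and Ccno 2 and 4 UMIs. Rfx2 had 79.7 and 94.1 CPM against 19.7 and 19.3 CPM in astrocytes, Rfx3 had 284 and 303 CPM against 281 and 270 CPM, and Rfx4 had 85.7 and 88.5 CPM against 315 and 301 CPM. The Rfx factors thus did not share a direction.

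**Figure D2:**
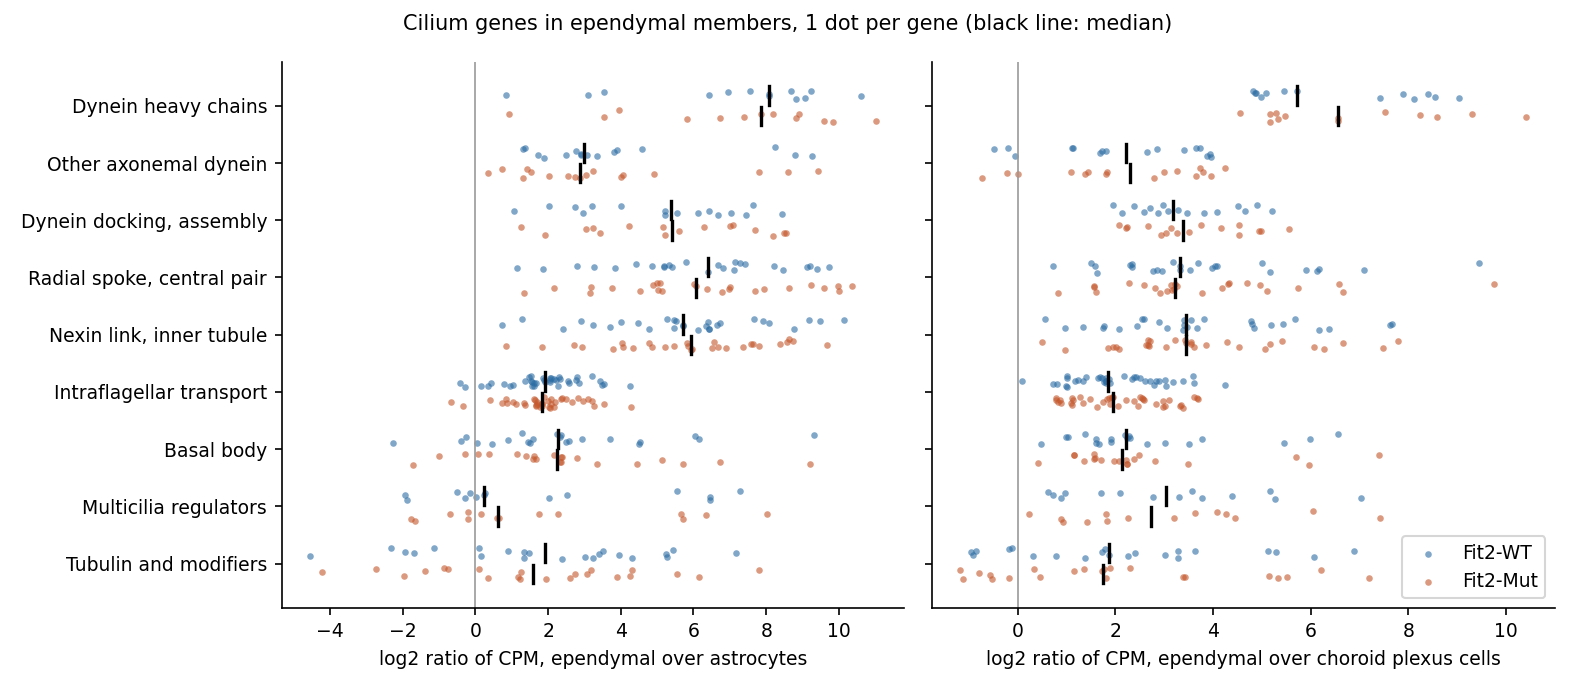
Each dot is 1 gene, placed at its log2 ratio of CPM in rule-selected cells to astrocytes or to choroid plexus epithelium within a library, with genes grouped by the part of the cilium they build and a line at each group's median. Dynein heavy chains have medians of 8.07 and 7.86 over astrocytes, and intraflagellar transport genes of 1.91 and 1.84.

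Ranked by the lowest of 4 ratios (over astrocytes and over choroid plexus, in each library), the genes richest in rule-selected cells were 3300002A11Rik, Spag17 and Sntn. With counts under 3 in a comparison set taken as 3, the lowest ratios were 715 for 3300002A11Rik, 702 for Spag17, of the central pair, and 601 for Sntn (sentan), which sits at the tip of motile cilia. The first had 865 and 823 CPM, the second 420 and 457 CPM, and Sntn 360 and 402 CPM in Fit2-WT and Fit2-Mut. The heavy chains Dnah3, Dnah5, Dnah10 and Dnah12 were among the 20 richest. Others are not known as parts of the axoneme. Calb1, the calcium buffer calbindin, had 267 and 258 CPM against 0.663 and 1.04 CPM in astrocytes, and the cadherin-related Cdhr3 had 290 and 314 CPM and Cdhr4 313 and 348 CPM. Stoml3, a stomatin-like membrane protein, had 202 and 264 CPM, and Ccdc180 183 and 209 CPM. Of these, Sntn was at 2.94 and 24.4 CPM in low-marker members against 507 and 513 CPM in high-marker cells.

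Promoters of 3 of these genes are shown because they hold letters of the motifs that Rfx and forkhead factors are known to bind. Windows run from 250 bases before to 50 after the gene's start, from RefSeq on GRCm38.p6, each on the plus strand. Lower case is flanking sequence and capitals mark the matches. The X-box was searched by its 14-letter consensus, a shorter X-box arm as GTTGCCATG, which can lie inside an X-box, and a forkhead motif as TGTTTAC, on both strands. Ccdc180 holds an X-box whose first base is the start site itself (chr4:45890053-45890352). Sntn holds the arm 66 bases and a forkhead match, read on the other strand, 236 bases before its start (chr14:13670626-13670925). Stoml3 holds a forkhead match 92 bases before its start (chr3:53488457-53488756).
Ccdc180: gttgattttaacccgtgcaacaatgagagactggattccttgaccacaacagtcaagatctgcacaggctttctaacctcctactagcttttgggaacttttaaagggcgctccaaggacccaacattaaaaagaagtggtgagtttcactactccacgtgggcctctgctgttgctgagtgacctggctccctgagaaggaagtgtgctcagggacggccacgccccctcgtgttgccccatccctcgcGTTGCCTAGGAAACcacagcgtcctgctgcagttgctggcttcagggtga
Sntn: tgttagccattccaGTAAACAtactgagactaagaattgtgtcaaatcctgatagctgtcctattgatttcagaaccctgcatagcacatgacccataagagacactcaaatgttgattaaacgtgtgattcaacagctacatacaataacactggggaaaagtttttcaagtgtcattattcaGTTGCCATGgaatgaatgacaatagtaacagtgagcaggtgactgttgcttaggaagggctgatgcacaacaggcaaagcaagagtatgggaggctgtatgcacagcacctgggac
Stoml3: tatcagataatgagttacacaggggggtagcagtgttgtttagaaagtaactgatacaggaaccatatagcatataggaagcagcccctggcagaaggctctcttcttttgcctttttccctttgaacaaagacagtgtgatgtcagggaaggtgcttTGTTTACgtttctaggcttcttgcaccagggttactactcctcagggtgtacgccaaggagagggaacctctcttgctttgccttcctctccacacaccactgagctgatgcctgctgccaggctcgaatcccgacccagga
Of all 27025 genes with a window, 0.529% held the X-box, 0.877% the arm and 4.05% the forkhead motif. Of the 103 axoneme genes, 83 had a window, and 2 (2.41%) held the X-box, 2 (2.41%) the arm and 5 (6.02%) the forkhead motif. Of the 20 richest genes, 14 had a window and 1, 1 and 2 held them. Of the 5 rule genes, 4 had a window and 0 held any of the 3 motifs. A match is a run of letters in this window and not a measured binding site.

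Outside the cilium, rule-selected cells had some glial genes near or above their level in astrocytes and others far under it. Sox9, a glial transcription factor, had 488 and 532 CPM against 383 and 380 CPM in astrocytes, and Sox2 312 and 295 CPM against 377 and 338 CPM. Vim, the filament vimentin, had 1149 and 1094 CPM against 93.0 and 98.3 CPM. After each cell was thinned to 2000 UMIs, Vim was seen in 71.0% (61.5 to 79.4%) and 67.3% (59.2 to 74.8%) of rule-selected cells, in 88.3% and 82.3% of high-marker cells and in 8.15% and 7.35% of astrocytes. Thinned endothelial cells had it in 79.3% and 78.1%. Without thinning, the shares were 90.9% and 86.2% of rule-selected cells and 13.9% and 14.4% of astrocytes. Slc1a3, a glutamate transporter of astrocytes, had 85.7 and 87.9 CPM against 2396 and 2081 CPM. Aqp4, the glial water channel, had 283 and 382 CPM against 745 and 744 CPM. Gja1, of gap junctions, had 221 and 272 CPM against 1327 and 1332 CPM. Over the 23 glial identity genes compared, 14 and 15 were at least 1.5-fold lower than in astrocytes, where 37.4% of all genes in each library were. Another 4 and 5 were at least 1.5-fold higher, where 33.5% and 32.4% of all genes were, and the medians were -1.47 and -1.39.

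Lowest against astrocytes were Cldn10, Brinp3, Gria1, Gpc5 and Slc7a11. Gria1, a glutamate receptor subunit, had 6 and 4 UMIs in all members, or 5.14 and 2.48 CPM, against 861 and 912 CPM in astrocytes. Gpc5, a glypican, had 40.3 and 49.5 CPM against 7679 and 6646 CPM. Genes of cholesterol synthesis and uptake were also lower than in astrocytes, with 16 of 22 at least 1.5-fold lower in each library, where 37.4% of all genes were, and medians of -1.68 and -1.60. Heat shock and endoplasmic reticulum stress genes went the other way, with 14 and 13 of 19 at least 1.5-fold higher, where 33.5% and 32.4% of all genes were, and medians of 1.54 and 1.38. Among them, Hsp90aa1, a cytosolic chaperone, had 4616 and 5314 CPM against 157 and 184 CPM. Metallothionein and redox genes had 10 and 13 of 18 at least 1.5-fold higher, against the same shares of all genes, and Mt3, a zinc-binding protein of glia and neurons, had 3919 and 4182 CPM against 1531 and 1344 CPM. Dbi, the acyl-CoA binding protein, was among the 15 genes with most UMIs, at 10194 and 11202 CPM against 1305 and 1230 CPM. Slc2a1, the glucose transporter of brain barriers, had 411 and 395 CPM against 120 and 126 CPM in astrocytes and 50.3 and 44.6 CPM in choroid plexus.

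**Figure D3:**
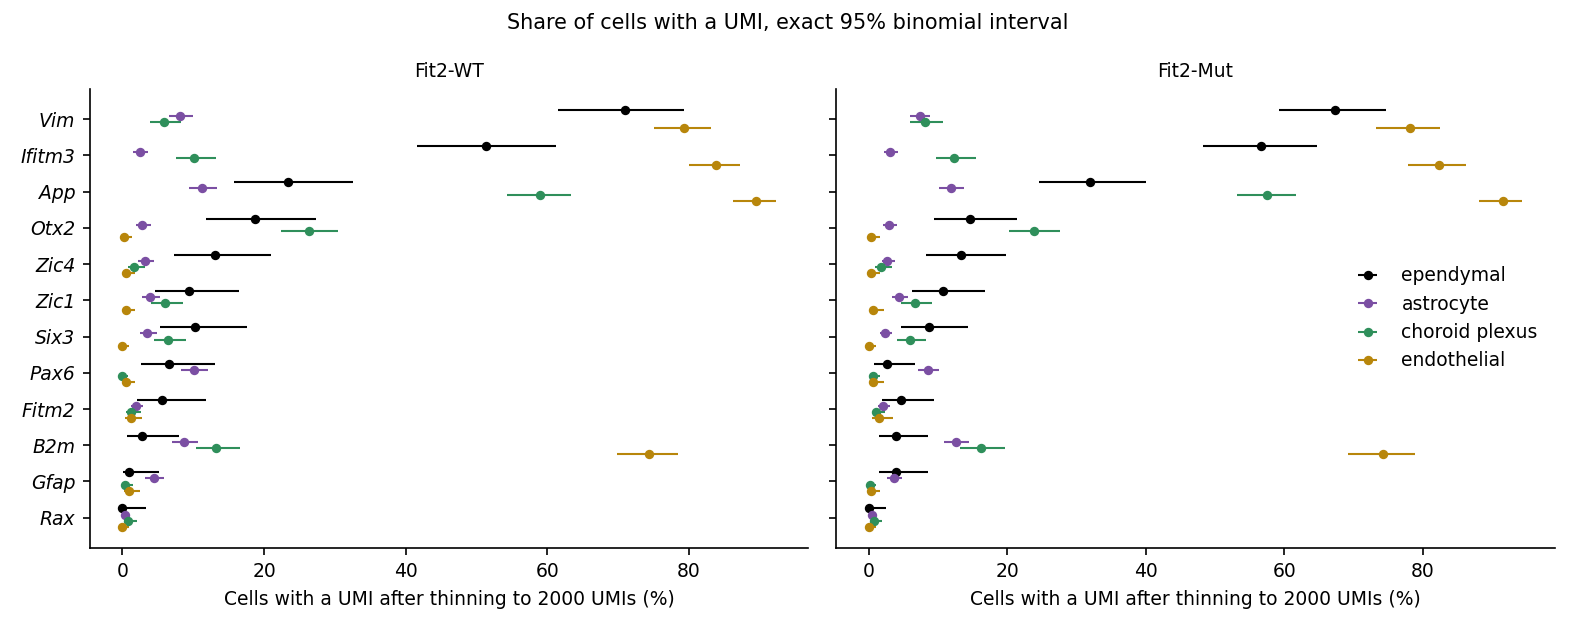
Points give the percent of cells with at least 1 UMI of a gene after thinning each cell to 2000 UMIs, in rule-selected cells, astrocytes, choroid plexus epithelium and endothelial cells of each library, with exact 95% binomial intervals. Vim and Ifitm3 are seen in 71.0% and 51.4% of rule-selected Fit2-WT cells, in 8.15% and 2.41% of astrocytes and in 79.3% and 83.8% of endothelial cells.

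Genes that mark position along the brain were detected in a minority of rule-selected cells. At 2000 UMIs per cell, Zic4, of the dorsal and midline brain, was seen in 13.1% of Fit2-WT cells (interval 7.34 to 21.0%), and Fit2-Mut had 13.3% (8.34 to 19.8%). Astrocytes had 3.12% and 2.71%. Zic1 was seen in 9.35% and 10.7%, against 3.92% and 4.41% of astrocytes. Six3, of the forebrain, was seen in 10.3% and 8.67%, against 3.52% and 2.32% of astrocytes and 6.43% and 5.91% of choroid plexus cells. In full, without thinning, Zic4 had a UMI in 35.5% and 38.2% of rule-selected cells and Zic1 in 38.2% and 38.2%. Rax, which marks tanycytes of the third ventricle, had a UMI in 0 of 107 and 0 of 150 thinned cells, and in 2 and 1 cells without thinning. Taking 3 cells as the limit for a count of 0, cells with a UMI were at most 2.80% and 2.0%, and the exact binomial bounds were 3.39% and 2.43%. For Zic4, Zic1, Six3 and Rax the intervals of the libraries overlapped. Col23a1, also known from tanycytes, was seen in 1.87% and 4.67% of thinned cells, against 3.62% and 3.56% of astrocytes. Without thinning it was seen in 16.4% and 15.1%, against 7.65% and 8.73%. A list of 10 tanycyte genes summed to 131 and 139 CPM in rule-selected cells, against 253 and 256 CPM in astrocytes. Of the list, 3 and 2 genes had 0 UMIs in rule-selected cells.

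High-marker cells varied most in a short list of genes. Thinned to 2000 UMIs, Apoe, the lipid carrier, had a variance 9.56 and 8.64 times its mean across cells, against a median gene at 1.05 and 1.05. Nnat (neuronatin), an imprinted membrane protein gene, had 8.20 and 5.17, Fos 5.74 and 4.57, and Mt1 3.01 and 3.87. Spp2, a secreted phosphoprotein, had 5.14 and 7.47 and came from very few cells, since over all rule-selected cells 5 cells held its 165 UMIs in Fit2-WT and 2 cells its 87 UMIs in Fit2-Mut. Sspo, the SCO-spondin that forms Reissner's fibre under the subcommissural organ, had 146 UMIs in 7 rule-selected cells of Fit2-WT, of which 3 high-marker cells held 70, and 55 UMIs in 3 cells of Fit2-Mut, all high-marker. Of the axoneme, Spag17 had a variance of 0.995 and 1.31 times its mean, and the ciliary Sntn of 0.963 and 1.61.

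Rule-selected cells made up 2.06% (1.70 to 2.48%) of cells in Fit2-WT and 2.54% (2.16 to 2.97%) in Fit2-Mut. The ratio was 1.23 with an interval of 0.958 to 1.59, which includes no difference. For high-marker cells alone the ratio was 1.29 (0.960 to 1.75), and for low-marker members 1.09 (0.664 to 1.79). Of 10700 genes with at least 20 UMIs, 893 were at least 1.5-fold higher in Fit2-Mut (8.35%) and 611 at least 1.5-fold lower (5.71%), and the median log2 ratio was 0.03. In high-marker cells 885 of 9982 genes (8.87%) were higher and 725 (7.26%) lower. These shares include counting error, since many of the genes have few UMIs. Low-marker members held 340300 of the 1166525 UMIs of rule-selected cells in Fit2-WT and 368827 of 1615839 in Fit2-Mut, a smaller part. Ratios over all rule-selected cells carry this unequal mixture as well. Where no ratio in high-marker cells is given beside them, as for Id4 and Aqp4 below, its part was not tested.

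Fitm2 itself, an endoplasmic reticulum protein that helps form lipid droplets (ENSMUSG00000048486, chr2:163466379-163472629, minus strand, GRCm38), was low in these cells. It had 34 UMIs or 29.1 CPM in Fit2-WT and 36 UMIs or 22.3 CPM in Fit2-Mut, a ratio of 0.764 (0.465 to 1.26), and 0.682 (0.413 to 1.13) in high-marker cells. Its interval includes no difference. The level was above the 11.6 and 10.9 CPM of astrocytes and the 6.56 and 10.0 CPM of free RNA. At 2000 UMIs per cell a UMI was seen in 5.61% (2.09 to 11.8%) and 4.67% (1.90 to 9.38%) of rule-selected cells, against 1.91% and 2.09% of astrocytes. The deleted part of the gene is not given in the labels, so 3′ counts may not read it. Of 24 lipid droplet genes, 0 were at least 1.5-fold higher and 1 lower, where 8.35% and 5.71% of all genes were, with a median log2 ratio of -0.16. In high-marker cells 3 of 21 were higher and 2 lower, where 8.87% and 7.26% of all genes were, with a median of -0.07. Plin2, which coats droplets, had 29.1 and 27.2 CPM, Plin3 109 and 88.5 CPM, and Acsl3, which activates fatty acids for droplets, 205 and 183 CPM.

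Axoneme genes lay within 1.5-fold of each other between the genotypes. Of the 99 axoneme genes tested, 0 were 1.5-fold higher and 0 lower in Fit2-Mut, with a median log2 ratio of 0.04, and of -0.03 in high-marker cells. In each of the 5 axoneme groups 0 genes were past 1.5-fold in either set of cells. The intraflagellar transport list had 1 of 39 higher and 0 lower, where 8.35% and 5.71% of all genes were, and 1 higher and 3 lower in high-marker cells, where 8.87% and 7.26% were. Regulators of multiciliation had 0 of 14 past 1.5-fold, and in high-marker cells 0 of 13 higher and 2 lower. Farthest among the genes named above, Dnah7a had 170 and 231 CPM, a ratio of 1.36 (1.14 to 1.62), and Armc4 a ratio of 1.32 (1.13 to 1.53). In high-marker cells alone both ratios were 1.22. Dnah12 was at 0.926 (0.848 to 1.01) in rule-selected cells and at 0.832 (0.760 to 0.911) in high-marker cells.

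**Figure D4:**
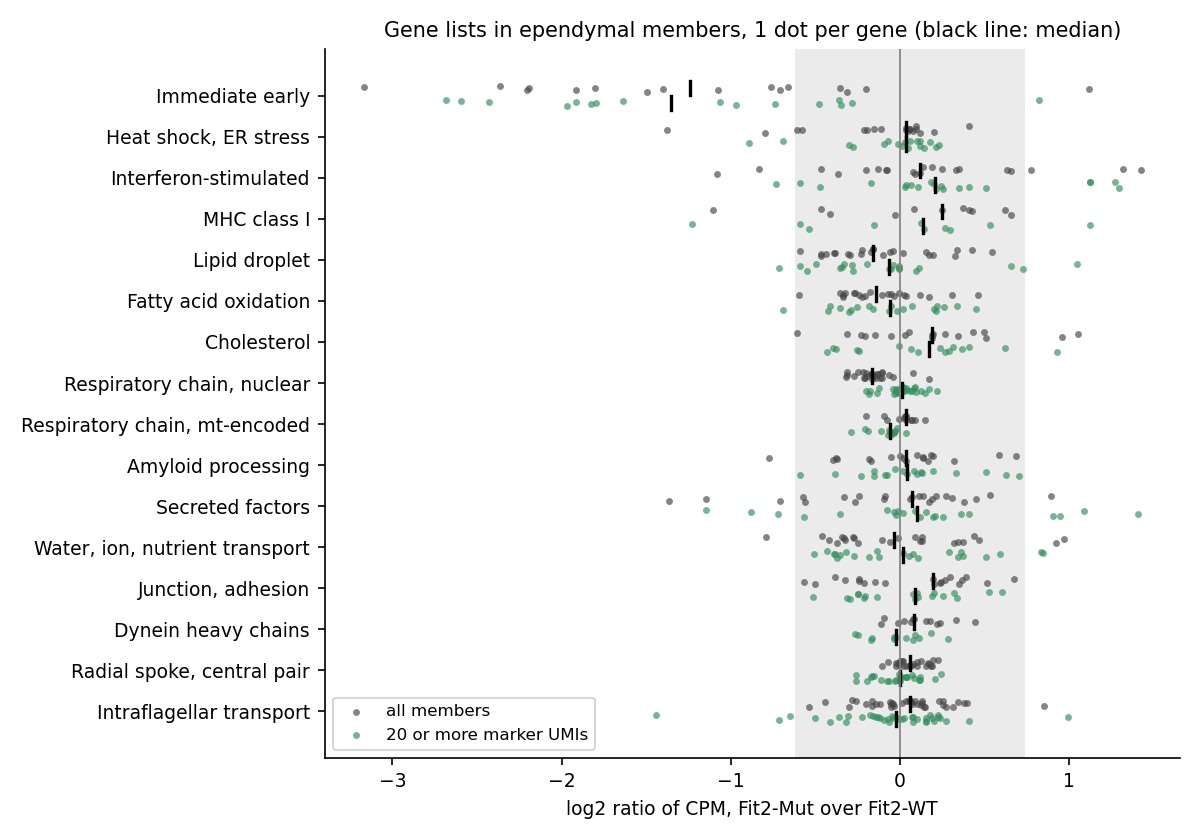
Each row is a gene list and each dot 1 gene's log2 ratio of CPM, Fit2-Mut over Fit2-WT, in all rule-selected cells (grey dots) and in those with 20 or more marker UMIs (green dots), with a black line at each median; the grey band spans the 5th to 95th percentile of all genes, -0.62 to 0.74. The median of the immediate-early list, -1.24, lies outside the band, though not every gene of the list does, while dynein heavy chains have a median of 0.08.

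Immediate-early genes, which neurons and glia switch on within minutes of a stimulus and which tissue dissociation is known to induce, were lower in Fit2-Mut. Of 16 compared, 12 were at least 1.5-fold lower and 1 higher, with a median log2 ratio of -1.24, where 5.71% of all genes were lower. In high-marker cells 11 of 16 were lower, where 7.26% of all genes were, and 1 higher, with a median of -1.35. Fos, a transcription factor of this class, had 385 UMIs or 330 CPM in Fit2-WT and 153 UMIs or 94.7 CPM in Fit2-Mut, a ratio of 0.287 (0.236 to 0.347). Jun, its partner, had 417 and 198 CPM, a ratio of 0.474 (0.411 to 0.547), and Egr1, a zinc finger factor, 68.6 and 14.9 CPM, a ratio of 0.217 (0.131 to 0.345). Junb had 57.4 and 11.1 CPM, Btg2 67.7 and 17.9 CPM, and Atf3 89.2 and 31.6 CPM. Jund, the family member least dependent on stimuli, had 697 and 607 CPM, a ratio of 0.871 (0.793 to 0.957). Klf4 was the gene on the other side, with 6 and 18 UMIs and a ratio of 2.17 (0.824 to 6.67).

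The difference was carried unevenly by cells. Of the UMIs of Fos, 56.1% in Fit2-WT and 68.6% in Fit2-Mut came from 5 cells, and the highest cell had 101 and 34 UMIs. Fos was seen in 36.4% and 17.1% of cells, so the share of cells with a UMI was also lower in Fit2-Mut. Of all UMIs of the list, the 10 highest of 110 cells held 45.9% in Fit2-WT, and the 10 highest of 152 held 27.7% in Fit2-Mut. The median cell had 0.114% of its UMIs on the list in Fit2-WT and 0.0866% in Fit2-Mut, and 0.159% and 0.107% among high-marker cells. Without the 10 highest cells of each library, a larger part of the cells in Fit2-WT than in Fit2-Mut, the list median was -0.60. With at least 40 marker UMIs it was -0.77, and with no limit on the genes of other cell types it was -0.43. Ier2 turned over, from a ratio of 0.219 (0.126 to 0.365) to 1.42 (0.582 to 3.81) at 40 or more marker UMIs, where it had 8 and 17 UMIs. In astrocytes the list median was -0.30, in choroid plexus -0.11, and in endothelial cells 0.30. Free RNA had 2765 and 2801 CPM of the list, against 2001 and 1131 CPM in rule-selected cells. With 1 library each, genotype and library cannot be told apart.

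**Figure D5:**
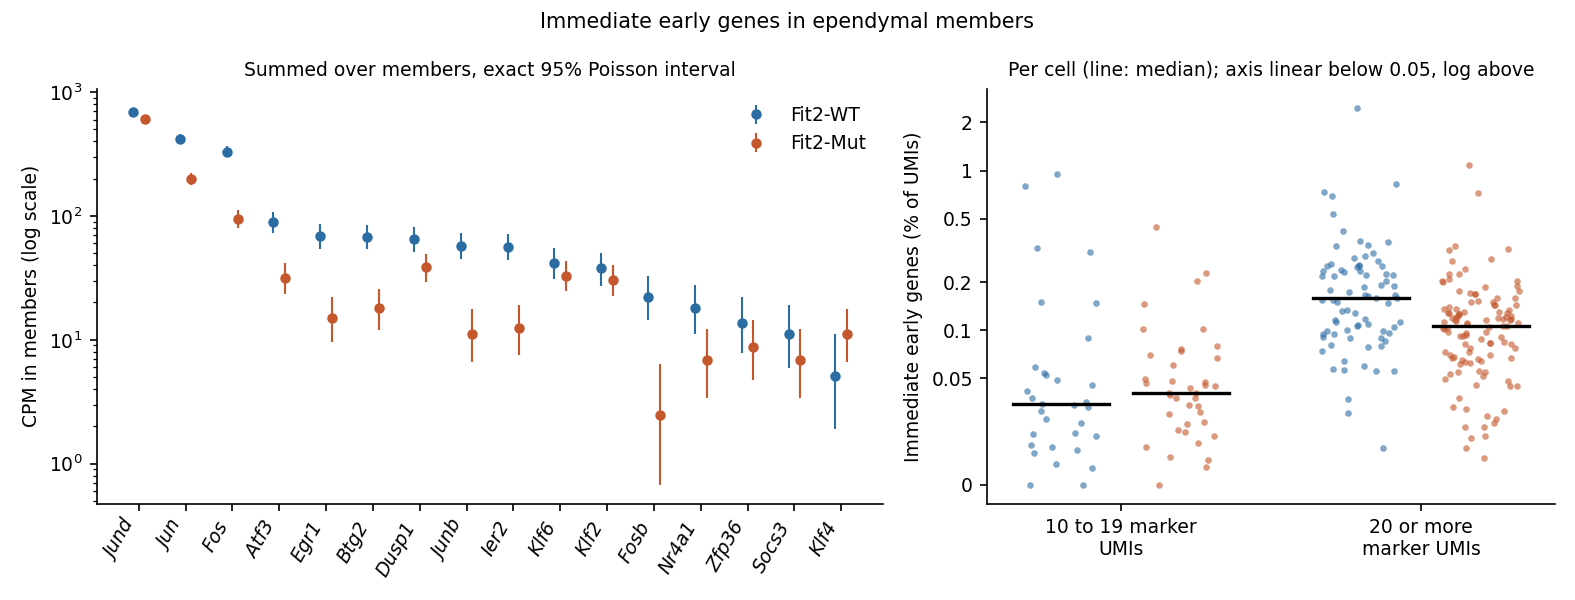
The left panel gives the CPM of immediate-early genes in rule-selected cells of each library with exact 95% Poisson intervals (log axis), and the right panel the percent of each cell's UMIs on the list, 1 point per cell with a line at the median, by genotype and marker UMIs (axis linear under 0.05%, log above). Fos stands at 330 CPM in Fit2-WT and 94.7 CPM in Fit2-Mut, and the median high-marker cell at 0.159% and 0.107%.

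Some interferon-response genes were past 1.5-fold. Of 21 compared, 5 were at least 1.5-fold higher and 2 lower, where 8.35% and 5.71% of all genes were, with a median log2 ratio of 0.11. In high-marker cells 4 of 20 were higher and 2 lower, where 8.87% and 7.26% were, with a median of 0.21. The same list had a median of 0.50 in choroid plexus, 0.13 in astrocytes and -0.24 in endothelial cells, where all genes had medians of 0.01, 0.02 and -0.02. Ifitm3, a membrane protein that restricts viral entry, had 527 and 662 CPM, a ratio of 1.26 (1.14 to 1.39), against 30.5 and 38.6 CPM in astrocytes. At 2000 UMIs it was seen in 51.4% (41.5 to 61.2%) and 56.7% (48.3 to 64.7%) of cells and in 66.2% and 71.7% of high-marker cells, against 2.41% and 3.10% of astrocytes. Endothelial cells had a higher share, 83.8% and 82.3%, and choroid plexus cells had 10.2% and 12.4%. Isg15, a ubiquitin-like protein, had 28 UMIs or 24.0 CPM in Fit2-WT and 104 UMIs or 64.4 CPM in Fit2-Mut, a ratio of 2.68 (1.75 to 4.23), but 5 cells held 92.9% and 86.5% of these UMIs. Ifit1 had 9.43 and 23.5 CPM, while Ifit3 had 46.3 and 43.9 CPM. Of 11 genes of MHC class I presentation 2 were higher and 1 lower, where 8.35% and 5.71% of all genes were, while in high-marker cells 1 of 10 was higher and 2 lower. H2-K1 was at 111 and 143 CPM with a ratio of 1.29 (1.04 to 1.62), and B2m at 26.6 and 40.8 CPM with a ratio of 1.54 (0.989 to 2.44). B2m was under its level in free RNA, 291 and 396 CPM.

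Medians of the other lists described here lay between -0.17 and 0.19 on the log2 scale. Of 18 cholesterol genes, 2 were at least 1.5-fold higher and 1 lower, where 8.35% and 5.71% of all genes were, with a median of 0.19. Of 22 fatty acid oxidation genes, 0 were higher and 1 lower, with a median of -0.14. Of 17 metallothionein and redox genes, 0 were past 1.5-fold either way. Of 19 heat shock genes, 3 were lower and 0 higher, where 5.71% and 8.35% of all genes were. In high-marker cells 2 of 18 were lower, where 7.26% of all genes were, and in low-marker cells alone 8 of 14, where 11.9% were. The median log2 ratio of heat shock genes was 0.03 in rule-selected cells, and -1.22 in low-marker cells alone. Hspa1a, the inducible chaperone, had 50.6 and 29.1 CPM, a ratio of 0.575 (0.383 to 0.858). Nuclear respiratory chain genes had a median of -0.17 in rule-selected cells and of 0.01 in high-marker cells, with 0 of 27 past 1.5-fold in either. Of 22 glial identity genes 2 were higher and 2 lower, against the same shares of all genes, and in high-marker cells 4 were higher and 1 lower, where 8.87% and 7.26% were. Id4, which holds back differentiation, had 345 and 451 CPM, a ratio of 1.31 (1.16 to 1.48), and Aqp4 a ratio of 1.35 (1.18 to 1.55). Apoe had 4534 and 5612 CPM, a ratio of 1.24 (1.20 to 1.28), and 1.16 (1.12 to 1.20) in high-marker cells. App, the amyloid precursor, had 143 and 164 CPM, a ratio of 1.15 (0.940 to 1.40).

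Of single genes, those highest in Fit2-Mut by the bound of the interval nearest to 1 included Npy, Ptx4, Nrxn3 and Meis2. Npy, a neuropeptide, had 7 UMIs in 2.73% of Fit2-WT cells and 67 UMIs in 16.4% of Fit2-Mut cells, a ratio of 6.91 (3.18 to 17.8). All of its Fit2-WT UMIs came from 3 cells, and 58.2% of its Fit2-Mut UMIs from 5 cells. Its level was also higher in endothelial cells of Fit2-Mut, at 109 CPM against 14.3 CPM, and in free RNA, at 33.6 CPM against 21.5 CPM, and the part of this in the result was not tested. Ptx4, a pentraxin, had 6 and 48 UMIs, a ratio of 5.78 (2.47 to 16.5), and 0 UMIs in astrocytes, choroid plexus and endothelial cells of both libraries. Nrxn3, a synaptic adhesion protein, had 310 UMIs or 266 CPM and 869 UMIs or 538 CPM, a ratio of 2.02 (1.78 to 2.31), and was seen in 37.3% and 50.7% of cells. Meis2, a homeobox factor, had 48.9 and 117 CPM, a ratio of 2.39 (1.77 to 3.28). Thinning cells to 2000 UMIs gave Meis2 a ratio of 1.28 (0.659 to 2.60), and keeping cells with 40 or more marker UMIs gave 1.61 (1.17 to 2.23). Pi15, a protease inhibitor, had 16 and 64 UMIs, and Dbn1, the actin-binding drebrin, 23 and 80 UMIs. In high-marker cells the ratios of Npy, Nrxn3, Meis2 and Pi15 were 6.34, 2.01, 2.13 and 2.61.

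Lowest in Fit2-Mut, beside Fos, Jun, Egr1, Ier2 and Btg2, were Btbd17, Sspo, Wfdc2, Cox7a1 and Smim22. Btbd17 had 53 and 11 UMIs, and 5 cells held 90.6% of those in Fit2-WT. Its ratio was 0.150 (0.0706 to 0.290). Sspo had a ratio of 0.272 (0.196 to 0.373), from 7 and 3 cells, and of 0.521 in high-marker cells. Wfdc2, a secreted protease inhibitor that choroid plexus cells carry at 563 and 503 CPM, had 134 and 57.6 CPM, with 84.6% and 67.7% of its UMIs in 5 cells. Cox7a1, a respiratory chain subunit, and Smim22, a small membrane protein, had ratios of 0.438 (0.306 to 0.621) and 0.481 (0.362 to 0.637), and of 0.815 (0.368 to 1.84) and 0.632 (0.331 to 1.21) in high-marker cells. Both were higher in low-marker members, with Smim22 at 314 and 176 CPM there against 26.6 and 16.8 CPM in high-marker cells.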

How the data were processed

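Dissociated whole brain was measured with droplet-based 3′ single-cell RNA sequencing (10x v3.1 chemistry), 1 library per genotype. What the authors deposited is, for every barcode of a library, the raw counts of UMIs per gene, per the file headers. The authors aligned to mm10. Counting used Cell Ranger, which the submitters' processing notes give as 7.0.0 and the matrix header as 7.1.0. Which annotation release was used, and how intronic reads were treated, is not given in the sources used here. In Fit2-WT, 822368 barcodes had a UMI, with 52491901 UMIs together. In Fit2-Mut, 868762 barcodes had 63234140.

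From these counts, cells and members were taken by the rule given in the report. The members, the gene lists, the comparison cell types and the rule for named genes were chosen with earlier results of these data known, so no list is independent support. Comparison cells had at least 10 UMIs of their own markers and at most 4 UMIs of the 5 ependymal markers together. Astrocytes and endothelial cells also had at most 4 UMIs of the choroid plexus genes of the rule. Mog, Cldn5 and P2ry12 summed to at most 3 in astrocytes and choroid plexus cells, and Mog and P2ry12 to at most 3 in endothelial cells. Astrocytes were chosen by Aldoc, Slc1a2, Gjb6, Fgfr3 and Ntsr2, choroid plexus by Folr1, Kcnj13 and Kcne2, and endothelium by Cldn5, Flt1 and Ly6c1. UMIs were summed over cells, and genes needed 20 UMIs in the sets compared. For ratios to other cell types and list medians, counts under 3 were set to 3. A difference was counted from 1.5-fold. The 43 lists hold 728 entries, of which 723 matched a gene in the files, and genes of the rule were left out of all other lists. Doublets were called with Scrublet (Scanpy 1.11.5) and kept, other than in an alternative. Python 3.11.15, NumPy 2.4.6, SciPy 1.17.1 and pandas 2.3.3 were used, and the scripts were tested on simulated data.

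Named genes were, first, the 10 highest and 10 lowest of Fit2-Mut over Fit2-WT by the interval bound nearest to 1. These needed a ratio of 1.5 either way, 50 UMIs, a UMI in 5% of members of the higher library and 0.5 times the level in free RNA there, and ribosomal, mitochondrial, haemoglobin, sex-linked and unnamed genes were left out. Added to these were the 20 genes richest in members with at least 50 CPM, the 5 lowest against each of astrocytes and choroid plexus with at least 200 CPM there, the 15 with most UMIs, the 15 most variable with a mean of at least 0.1 per cell, Fitm2, and up to 4 genes per list with most UMIs. Not all are named in the text, and some genes are not reported here. Other members of the lists named in the report, such as Hspa1a, Isg15, Ifit1, Klf4, Mcidas and Ccno, were chosen after their values were seen. Promoter windows came from RefSeq on GRCm38.p6, and gene coordinates from GENCODE on GRCm38, the build that mm10 names. The alternatives changed the marker threshold, the limits on cells, the scaling, the gene filter, the depth, the weighting of cells and the treatment of free RNA.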

Additional observations from a re-analysis of the deposited data

How the results depend on the processing

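No paired analysis was possible because each genotype has 1 library. Leaving out a replicate was not possible for the same reason. Of the values that answer a comparison, 77 kept to their interval or count under an alternative and 19 moved. With no limits on genes of other cell types, the share of ependymal cells had a ratio of 0.937, 2108 genes were higher and 325 lower in Fit2-Mut, the median of all genes was 0.14, and the axoneme median over astrocytes was 4.29 in Fit2-WT and 4.67 in Fit2-Mut. With at least 100 UMIs per gene, 133 were higher and 66 lower, with a median of 0.011. With 1 UMI in each library, 1880 were higher and 1757 lower, with a median of 0.011. With cells thinned to 2000 UMIs, 591 were higher, with a median of 0.015. The median of all genes was 0.056 at 5 or more marker UMIs, 0.0060 at 20 or more and 0.0057 at 40 or more, 0.015 with median of ratios scaling and 0.0092 in cells with at least 1% mitochondrial UMIs. Fewer genes tested and fewer UMIs per gene change these counts by construction, and other causes were not tested. Of the other values, 608 stayed, 72 moved and 6 turned. The median of nuclear respiratory chain genes turned to 0.0091 at 20 or more marker UMIs and 0.0057 at 40 or more, that of radial spoke and central pair genes to -0.00062 and -0.023, and at 40 or more the ratio of Ier2 was 1.42 and that of Smim22 1.004. The thresholds of 40 marker UMIs and 1% mitochondrial UMIs, and leaving out the 10 cells highest in immediate-early genes, were chosen after seeing the data. Depth limits Fitm2 and other genes with few UMIs, where a ratio near 1.5 lies within the counting interval.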
